A study of Gallus gallus with 4 samples.

Results

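Glycolysis splits glucose into lactate or pyruvate in the cytosol, and glycogen is the branched store of glucose from which working muscle feeds that pathway. Breast muscle of chickens consists mostly of fast fibres, which draw on glycolysis for short bursts of work. Many steps have isoforms, and their usual names (muscle, liver, brain, heart or platelet type) come largely from mammals. The set described here was chosen by gene symbol, with earlier results of these data known. It held 41 genes of glycolysis, its gluconeogenic bypass, its sugar bisphosphate regulators and glycogen turnover. Of these, 33 symbols stood exactly in the gene column of a table of 18973 rows, on 35 rows, and 8 symbols had no row of their own (ALDOA, PGAM2, ENO3, PGM1, GYS1, PYGM, PHKG1 and PHKG2).

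RNA came from the pectoralis muscle of Isfahani chickens, a native Iranian breed, and of Ross 708 broilers, a commercial line bred for growth and breast yield, all at day 28 after hatching. Each breed had 2 libraries, and each library pooled equal RNA amounts of 3 birds. No treatment or genotype other than breed is given in the labels, nor the sex of the birds. The values are FPKM, fragments per length of transcript and per library size, so levels of different genes can be set side by side. The deposited table gives 1 FPKM value per breed, which means that no SD over the 2 pools can be given, and depth is unknown. Its column "Native" was read as Isfahani and "Commercial" as Ross 708. The only test that saw the 2 pools of a breed is the authors' own, and a gene is named as called when the q-value in the authors' deposited table was at or under 0.05. Separate flocks behind the pools are not stated in the labels. The authors' p-values rest on 2 pools of 3 birds per breed. They may thus measure technical spread together with differences between birds that pooling has averaged. The ratio given throughout is log2((Ross 708 + 1)/(Isfahani + 1)) on the FPKM scale, positive where Ross 708 was higher. Where a sentence gives a pair of FPKM values, Isfahani comes first. The added 1 understates the change of low genes.

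Of the 33 genes with a row, 23 were tested by the authors. Another 4, GAPDH, LDHA, PGAM1 and PKM, have the status HIDATA, which Cuffdiff writes for a locus with too many fragments to be fitted, and take no ratio. The last 6 were not tested for low signal: HK2, PFKM and PFKFB1 were listed at 0 in both breeds, while ENO2 (0.21 and 0.536 FPKM in Isfahani and Ross 708), GYG2 (0.144 and 0.0625 FPKM) and GYS2 (listed at 0 for Isfahani, with 0.0177 FPKM for Ross 708) were near 0. The rows of HK2, PFKM and PFKFB1 lie on unplaced scaffolds, and all 1122 scaffold rows of the table were listed at 0 in both breeds, against 15.2% of the 17851 rows on named chromosomes. Their zeros therefore cannot be read as levels. The tissue label was checked on 16 muscle genes, of which 10 had a row: ACTN2 (2234 and 2559 FPKM), DES (1971 and 1917 FPKM), TTN (322 and 299 FPKM) and PVALB (86 and 109 FPKM) were present in both breeds, MYOD1 was called lower in Ross 708 (238 and 110 FPKM), and 5 had HIDATA. The marker lists of other cell types are given beside the aldolase result.

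Across the 23 tested genes, most breed differences were small. ALDOC was called higher in Ross 708 and 0 were called higher in Isfahani, and 22 were not called. Among all 11626 tested rows the called shares were 3.07% in the first direction and 2.14% in the second, so 1 of 23 (4.35%) is near the background. At an unadjusted p of 0.05 or less, 5 genes were higher in Ross 708 (ALDOC, FBP1, LDHB, PHKA2 and PGM2, the last on only the higher of its rows) and 1 in Isfahani (PFKFB3). That is 21.7% and 4.35% of the tested genes, beside 9.06% and 7.96% of all tested rows. The median log2 ratio of the 23 genes was 0.029, and that of all tested rows -0.034. Ratios ran from -0.83 for PFKFB3 to 1.20 for ALDOC, with 16 of 23 (69.6%) within 0.5 of 0, beside 74.7% of all tested rows. In bulk muscle, fewer cells of a type and less RNA per cell cannot be told apart.

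**Figure D1:**
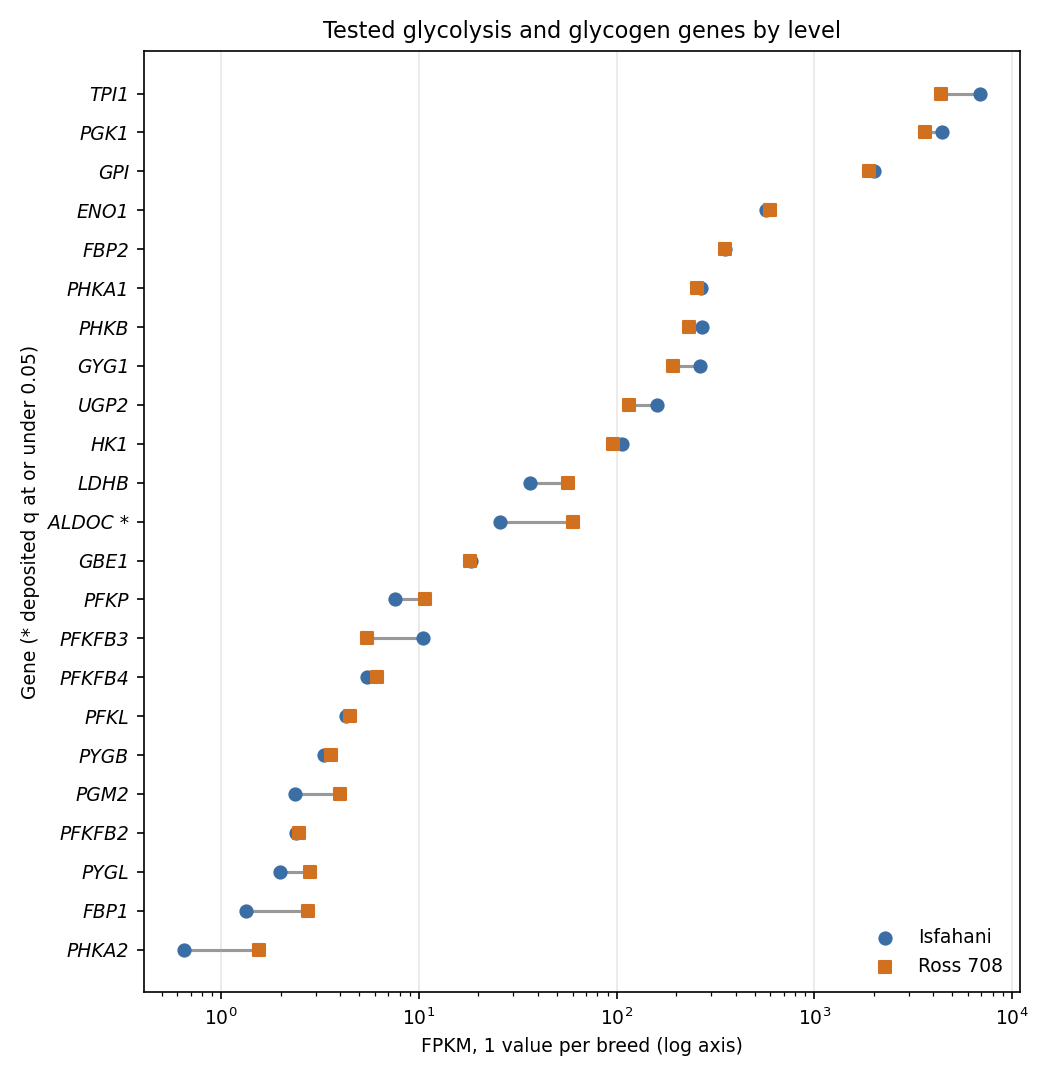
FPKM of the 23 tested genes in Isfahani (circles) and Ross 708 (squares) on a log axis, 1 value per breed, ordered by mean level; an asterisk marks the called gene. TPI1 stood highest and PHKA2 lowest, and the gap between breeds was widest on this axis for PHKA2 and ALDOC.

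Among tested genes of the reactions that take up and rearrange hexose, GPI stood highest. HK1, a hexokinase that traps glucose as its phosphate, stood at 107 FPKM in Isfahani birds and 95.8 in Ross 708 birds (log2 ratio -0.15). GPI, which turns glucose 6-phosphate into fructose 6-phosphate, was at 2007 against 1891 FPKM (log2 ratio -0.086). Both differences were far from the authors' threshold (q = 0.873 and 0.951 in the authors' deposited table). HK2, a further hexokinase, is a scaffold row listed at 0, so the level of the whole hexokinase step was not measured. Phosphofructokinase, the committing step of glycolysis, was represented only by its low liver-type and platelet-type isoforms. PFKL was at 4.29 against 4.50 FPKM, and PFKP at 7.53 and 10.8 FPKM, the latter with a log2 ratio of 0.47, p = 0.0584 and q = 0.319 in the authors' deposited table. The muscle-type gene PFKM is one of the scaffold rows listed at 0, so the level of this step in breast muscle was not measured.

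Fructose-bisphosphatase runs the opposite reaction and serves the resynthesis of glucose or glycogen. FBP2, the muscle-type gene, was at 355 against 352 FPKM (log2 ratio -0.014). FBP1, the liver-type gene, was at 1.33 against 2.76 FPKM (log2 ratio 0.69) with p = 0.0107 and q = 0.125 in the authors' deposited table. FBP2 made up 99.6% of their summed FPKM in Isfahani and 99.2% in Ross 708, so the 2.07-fold difference of FBP1 left the sum of the pair at 357 and 355 FPKM.

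ALDOC was the single called gene. It encodes the brain-type aldolase, one of the enzymes that cut fructose 1,6-bisphosphate into triose phosphates. Its row (chromosome 19, 5734739 to 5737598, overlapping no other row) stood at 25.7 FPKM in Isfahani birds and 60.2 in Ross 708 birds, a 2.35-fold difference and a log2 ratio of 1.20. In the authors' deposited table its p-value was 5e-05, the smallest value there and shared by 237 tested rows, and its q-value 0.00245. By level it ranked 2401 among the 11626 tested rows in Isfahani and 1052 in Ross 708. Of the 357 rows called higher in Ross 708, 138 had a log2 ratio at least as large. ALDOA, the muscle-type aldolase, had no row, so the part of ALDOC in all aldolase mRNA was not measured.

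Marker lists of other cell types differed between the same pools, and their part in the ALDOC result was not tested. Among all tested rows, 3.07% were called higher in Ross 708. Called or not, 47.1% of tested rows below 100 FPKM and 36.2% at or above it were higher in Ross 708. Leukocyte genes had a median log2 ratio of 0.64 (10 of 10 tested genes higher in Ross 708, 1 called, summed level 2288 and 2978 FPKM). Most of that sum was CD74 (2138 and 2734 FPKM, not called), whose row overlaps 14 others. Fibroblast genes had a median of 0.64 (9 of 9, 3 called, 1967 and 3199 FPKM) and adipocyte genes 2.07 (8 of 8, 5 called, 259 and 587 FPKM). Endothelial genes had 0.35 (9 of 9, 0 called by the authors' test and 3 at unadjusted p of 0.05 or less, 67.7 and 93.7 FPKM). Smooth muscle genes had 0.40 (4 of 6, 1 called, 2018 and 1988 FPKM, most of it DES, which skeletal muscle shares). The immediate early and heat shock genes, which respond to handling as well as to other stimuli, had 1.60 (12 of 12, 8 called, 912 and 2157 FPKM). At an unadjusted p of 0.05 or less in the authors' test, 9.06% of all tested rows were higher in Ross 708. Beside the endothelial genes, these were 6 leukocyte, 4 fibroblast, 5 adipocyte, 1 smooth muscle and 10 immediate early and heat shock genes. Markers of nerve and glia were low. Of 10 such genes 3 were tested, all 3 lower in Ross 708, and the whole list summed to 24.2 and 20.7 FPKM. GFAP, S100B, SNAP25 and NEFL stood below 0.13 FPKM in both breeds. Of 10 erythroid genes 3 had a row and 0 were tested, and the globin gene HBAA is a scaffold row listed at 0. COL1A1 of the fibroblast list is also listed at 0 on a scaffold.

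The triose phosphate part of the pathway held the most abundant of the tested transcripts. TPI1, which interconverts the triose phosphates (chromosome 1, 76754053 to 76757054), stood at 6929 FPKM in Isfahani birds and 4376 in Ross 708 birds, rank 3 and rank 7 among tested rows. Its log2 ratio of -0.66, 1.58-fold more in Isfahani, was not called (p = 0.0821, q = 0.379 in the authors' deposited table). PGK1, which makes the first ATP of the pathway, was at 4415 against 3653 FPKM, rank 9 and rank 16, with a log2 ratio of -0.27 and q = 0.805 in the authors' deposited table. ENO1, an enolase, was at 571 against 597 FPKM (log2 ratio 0.062). ENO3 had no row, so the level of the whole enolase step was not measured. GAPDH, which is often used as a reference gene, was listed at 0 in both breeds under HIDATA and gave no value. PGAM1, a phosphoglycerate mutase, and PKM, pyruvate kinase, were listed at 0 for Isfahani, with 8211 and 6962 FPKM for Ross 708, again under HIDATA. All 39 HIDATA rows were listed at 0 in Isfahani, and 10 of them at 0 in Ross 708 too, so these zeros say nothing of the breed's level.

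At the end of the pathway, lactate dehydrogenase regenerates the NAD that glycolysis needs. LDHA, the muscle-type subunit, has the status HIDATA and takes no ratio; it was listed at 0 for Isfahani, with 13191 FPKM for Ross 708. LDHB, the heart-type subunit (chromosome 1, 67177977 to 67190068), was at 36.5 against 56.5 FPKM, 1.55-fold more in Ross 708 with a log2 ratio of 0.62. It was not called (p = 0.0193, q = 0.175 in the authors' deposited table). The ratio of the 2 subunits could not be formed for either breed.

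TPI1, PGK1 and GPI together held 86.3% of the summed FPKM of the 23 tested genes in Isfahani and 83.1% in Ross 708. That sum was 15466 FPKM in Isfahani birds and 11941 in Ross 708 birds (log2 ratio -0.37), and it took 2.80% and 2.24% of the summed FPKM of all tested rows. Without TPI1 it was 8537 and 7565 FPKM. LDHA, PKM, PGAM1 and GAPDH have no valid estimate and entered neither sum.

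Within the tested set, ratios and levels were related. Of 10 genes with a mean of at least 100 FPKM, 9 were lower in Ross 708 and 1, ENO1, was higher, and their median log2 ratio was -0.19. None of the 10 was called, and FBP2 (-0.014), PHKA1 (-0.064) and GPI (-0.086) had ratios near 0. GAPDH, LDHA, PGAM1 and PKM, under HIDATA, entered no group. Of 13 genes below 100 FPKM, 11 were higher in Ross 708 and 2, PFKFB3 and GBE1, were lower, with a median of 0.36. PGM2 counts as higher on the row used, while its other row had a log2 ratio of -0.073. The same split of all tested rows gave 63.8% lower in Ross 708 at or above 100 FPKM (677 rows, median -0.14) and 52.9% lower below it (10949 rows, median -0.027). Spearman's rho between mean level and ratio was -0.63 over the 23 genes and -0.19 over all tested rows, a description across genes that share the same libraries and whose ratio uses the same values as the level. The division at 100 FPKM was chosen after the values were seen. With both breeds brought to one common total of all rows, 0 of the 10 and 8 of the 13 were higher in Ross 708. All tested rows at or above 100 FPKM and below it then had 25.6% and 37.5% higher in Ross 708. On centring the table on its median ratio, 2 of the 10 and 12 of the 13 were higher in Ross 708, beside 41.4% and 52.3% of all tested rows.

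**Figure D2:**
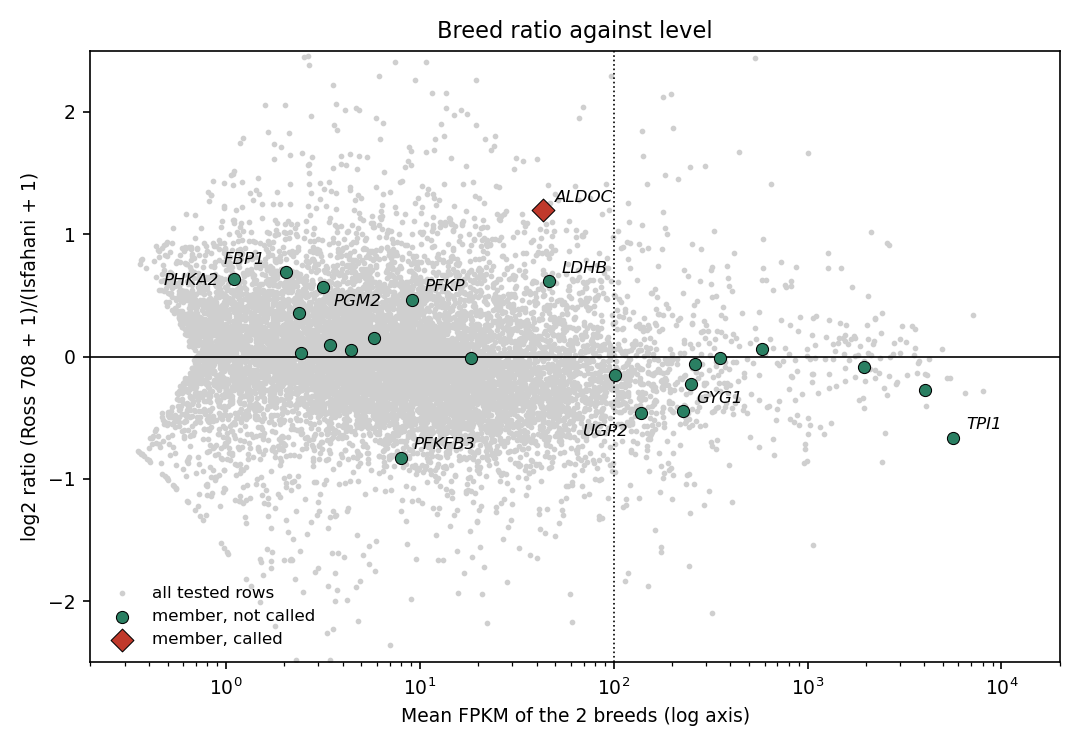
Log2 ratio of Ross 708 over Isfahani against the mean FPKM of the breeds (log axis), with all tested rows in grey, uncalled members as circles and ALDOC as a diamond; the dotted line marks 100 FPKM, and 49 tested rows lie beyond 2.5 on the vertical axis. Right of the line 9 of 10 members lie below 0, and left of it 11 of 13 lie above 0.

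Glycogen synthesis starts from glucose 1-phosphate, and none of its 3 tested genes was called; UGP2 and GYG1 had lower values in Ross 708 under each scaling tried, and GBE1 changed sign on centring. UGP2, which makes UDP-glucose (chromosome 3, 9438435 to 9504279), was at 160 against 116 FPKM (log2 ratio -0.46, p = 0.113, q = 0.44 in the authors' deposited table). Its row overlaps VPS54. GYG1, the glycogenin that primes a new glycogen particle (chromosome 9, 23410205 to 23425493), was at 264 against 194 FPKM (log2 ratio -0.44, p = 0.102, q = 0.419 in the authors' deposited table). GBE1, the branching enzyme, was at 18.4 against 18.2 FPKM. GYS1, muscle glycogen synthase, had no row, and the liver-type GYS2 was near 0, so the synthase step was not measured.

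Glycogen breakdown was seen mainly through the kinase that activates phosphorylase. PHKA1, its muscle-type alpha subunit, was at 267 against 256 FPKM, and PHKB, its beta subunit, at 271 and 232 FPKM, log2 ratios of -0.064 and -0.23. The liver-type alpha subunit PHKA2, whose row overlaps PPEF1, was at 0.645 against 1.56 FPKM (log2 ratio 0.64) with p = 0.00435 and q = 0.0698 in the authors' deposited table. PHKA1 and PHKB thus stood nearly 1 to 1 in Isfahani, and PHKA2 took under 1% of the summed FPKM of the subunits in both breeds. Of the phosphorylases themselves, the muscle-type PYGM had no row. The brain-type PYGB was at 3.31 against 3.61 FPKM, and the liver-type PYGL, whose row overlaps ABHD12B, at 1.97 and 2.80 FPKM. PGM2, a sugar phosphomutase, has 2 rows at 1 locus, with 2.36 and 3.99 FPKM on the row used (log2 ratio 0.57, q = 0.246) and 2.51 and 2.34 FPKM on the other (log2 ratio -0.073, q = 0.984, both q in the authors' deposited table).

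The PFKFB enzymes make and break fructose 2,6-bisphosphate, a potent activator of phosphofructokinase. PFKFB3, in mammals an isoform with high kinase activity (chromosome 1, 3450217 to 3478178), stood at 10.5 FPKM in Isfahani birds and 5.48 in Ross 708 birds, 1.91-fold more in Isfahani with a log2 ratio of -0.83. This was the lowest ratio of the 23 genes, and it missed the threshold (p = 0.0067, q = 0.0922 in the authors' deposited table). A second, lower PFKFB3 row at the same locus was at 0.782 against 0.266 FPKM, in the same direction (q = 0.723 in the authors' deposited table). PFKFB4 was at 5.45 against 6.17 FPKM (log2 ratio 0.15, p = 0.537, q = 0.849 in the authors' deposited table), its row overlapping one without a gene name, and PFKFB2 at 2.40 and 2.47 FPKM. PFKFB3 made up 57.2% of the summed FPKM of the 3 tested genes in Isfahani and 38.8% in Ross 708, PFKFB4 29.7% and 43.7%, and PFKFB2 13.1% and 17.5%. Of these 3 genes, the largest share belonged to PFKFB3 in Isfahani and to PFKFB4 in Ross 708, where they stood at 5.48 and 6.17 FPKM. Neither gene was called. PFKFB1 is a scaffold row listed at 0, so shares of the whole family were not measured. Such shares do not depend on how the libraries were scaled, but they have no replicate error here.

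**Figure D3:**
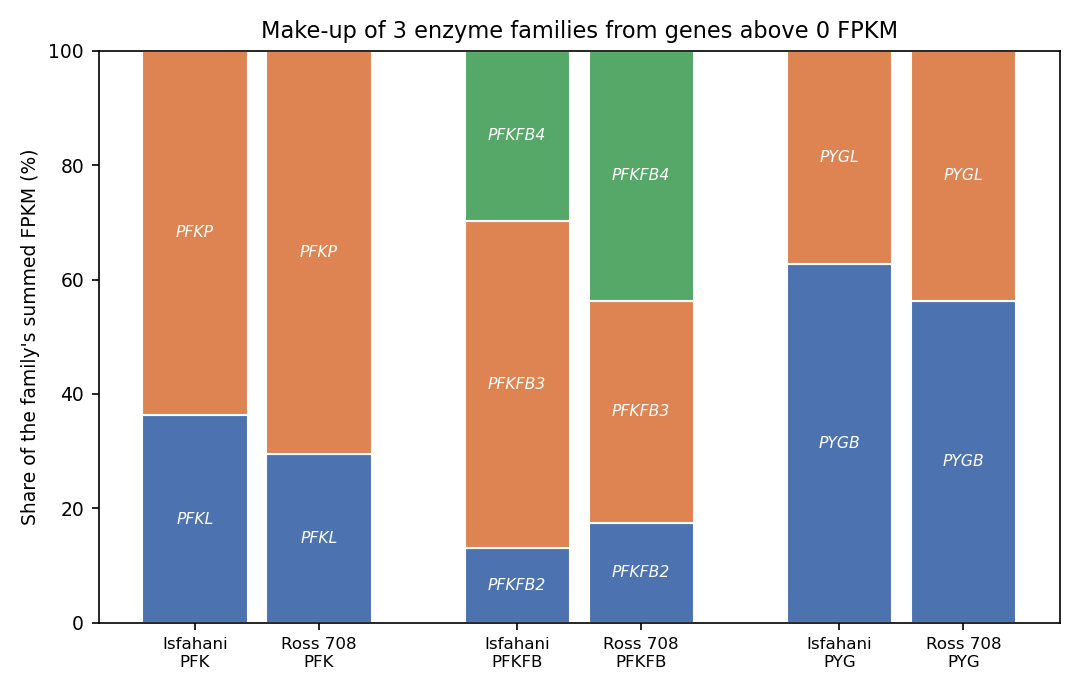
Share of each gene in the summed FPKM of its enzyme family (percent, from 0 to 100) in each breed, for phosphofructokinase (PFK), the PFKFB enzymes and glycogen phosphorylase (PYG), from genes above 0 FPKM; PFKM, PFKFB1 and PYGM carry no value. PFKFB3 takes 57.2% in Isfahani and 38.8% in Ross 708, and PFKP takes 63.7% and 70.6% of its pair.

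Further genes of carbohydrate metabolism were taken from 4 lists. Beside their counts stand the called shares of all tested rows, 3.07% higher in Ross 708 and 2.14% higher in Isfahani. Of 22 genes of glycogen regulation and breakdown, 14 were tested and 0 were called in either direction by the authors' test. At an unadjusted p of 0.05 or less, 4 were lower in Ross 708 and 0 higher, beside 7.96% and 9.06% of all tested rows. The 4 were EPM2A (laforin, a glycogen phosphatase; 16.2 and 11.04 FPKM), the glycogen-targeting phosphatase subunits PPP1R3A (91.5 and 51.5 FPKM) and PPP1R3D (11.9 and 6.80 FPKM), and PRKACB, a catalytic subunit of protein kinase A (41.1 and 26.6 FPKM). The q-values of these 4 in the authors' deposited table ran from 0.182 to 0.279. Of the 14 tested genes, 5 were higher and 9 lower in Ross 708. The list's median log2 ratio was -0.26, beside -0.034 for all tested rows. It was -0.40 with all rows brought to a common total and -0.21 on centring. At the same unadjusted p, the other glycolytic and gluconeogenic genes had 2 lower and 0 higher in Ross 708. The pentose phosphate genes had 1 and 1, and the regulators of glycolysis 4 and 2.

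Of 29 other glycolytic and gluconeogenic genes, 15 were tested, 1 was called higher in Isfahani and 0 higher in Ross 708. The called gene was MPC1, a subunit of the carrier that brings pyruvate into mitochondria (chromosome 3, 42131092 to 42141404), at 115 and 56.8 FPKM, 2.02-fold more in Isfahani (q = 0.00245 in the authors' deposited table). Its partner MPC2 was at 269 against 310 FPKM, uncalled with q = 0.793 in the authors' deposited table. Over that list the median ratio was 0.00036. BPGM, bisphosphoglycerate mutase, was at 289 against 255 FPKM, and PGM2L1 at 26 and 16.03 FPKM. The rows of both genes overlap another row.

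Of 12 pentose phosphate genes, 8 were tested and 1 was called, RPIA, ribose 5-phosphate isomerase (chromosome 4, 85694549 to 85709294), higher in Isfahani at 97.4 and 43.8 FPKM, 2.22-fold more in Isfahani (q = 0.00917 in the authors' deposited table). PGD, the dehydrogenase of 6-phosphogluconate, was at 10.6 against 16.3 FPKM, uncalled with q = 0.235 in the authors' deposited table. A median log2 ratio of -0.12 was found over these 8, with 4 genes higher and 4 lower in Ross 708.

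Of 22 regulators of glycolysis, 17 were tested, 1 was called higher in Isfahani and 1 higher in Ross 708. KLF15, a transcription factor that responds to fasting and glucocorticoids in mammals, was at 26.1 against 13.3 FPKM (log2 ratio -0.93, q = 0.0174 in the authors' deposited table). NR4A3, a nuclear receptor that also stands on the immediate early list, was at 4.25 against 58.1 FPKM (log2 ratio 3.49, q = 0.00245 in the authors' deposited table). HIF1A, the oxygen-sensitive activator of glycolytic genes, was at 7.48 against 10.9 FPKM on its higher row, and its partner ARNT at 57.1 and 39.1 FPKM, neither called (q = 0.375 and 0.267 in the authors' deposited table). This list's median log2 ratio was -0.17.

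**Figure D4:**
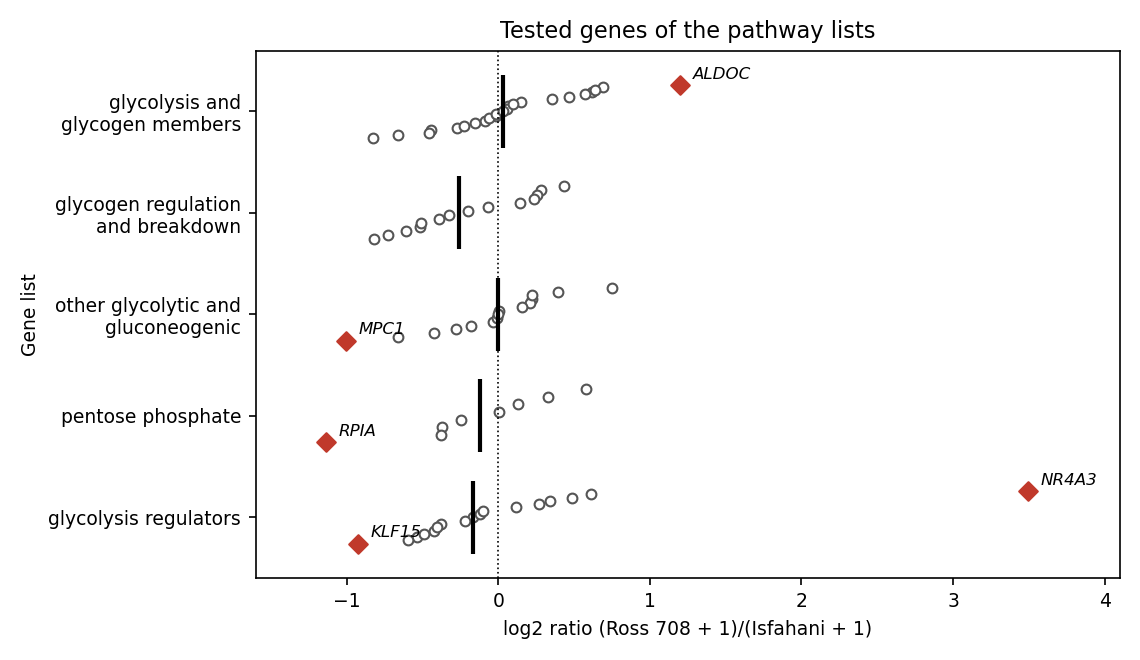
Log2 ratio of Ross 708 over Isfahani for every tested gene of the 23 members and of the 4 carbohydrate lists; open circles were not called, red diamonds were, and the black bar is the list's median. Called genes are ALDOC and NR4A3 to the right of 0 and MPC1, RPIA and KLF15 to the left.

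The authors' deposited lists of terms for Ross carry "Down" in their titles, while ALDOC was higher in Ross 708. ALDOC was the single member present in them, in 22 of 1095 gene ontology terms and 1 of 29 pathways. Of these 22 terms, 13 had a Benjamini-adjusted p of 0.05 or less in the authors' list, among them cell differentiation and small molecule biosynthesis. That count stands without the share of all 1095 terms at the same threshold, so it cannot be read as particular to ALDOC. The pathway with ALDOC did not reach that threshold. No member appeared in the 254 terms of the Isfahani list, and no term in the 3 lists had glycolysis, glycogen, gluconeogenesis or pyruvate in its name, while 1 term, the response to hexose, named hexose and did not hold a member.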

How the data were processed

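Per the submitters' processing notes, reads were handled with FastQC 0.11.5, Trimmomatic, HISAT2 and Cufflinks 2.2.1 on galGal5; annotation, library scaling and dispersion model: not given in the sources used here. Scaffold names in the loci are those of the earlier Galgal4 assembly, so the build of the loci, given as deposited, is uncertain. The authors deposited FPKM per breed, the log2 fold change, a test statistic (a score, not used), p-value and q-value per row, and for enriched terms a gene count, a fold enrichment (ratio), a p-value and an adjusted p-value, per the file headers. The tested rows number 11626; Benjamini-Hochberg adjustment of the deposited p-values over them gives the deposited q-values to within 5.22e-07. Strand use is not stated.

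From these, log2((Ross 708 FPKM + 1)/(Isfahani FPKM + 1)), medians, sums and shares were computed (Python 3.11.15, pandas 2.3.3). A code check read back ratios put in by the same formula and calls from assigned q-values. It did not cover medians, sums or shares. A symbol on several tested rows took the row of highest mean FPKM; 6 of the 23 tested members overlap another row. No test of this work was possible with 1 value per breed. Values were described for all members; p and q were printed for called members and for the 4 highest and 4 lowest ratios at 5 FPKM or more, and for others where a sentence turns on them, chosen after their values were seen. Members and lists were chosen with earlier results of these data known. Alternatives were the q threshold, a size limit, the pseudocount, a floor of 1 FPKM, 3 scalings, and the choice of rows. Some genes of the lists enter the counts and medians and are not reported here by name.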

Additional observations from a re-analysis of the deposited data

How the results depend on the processing

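With 1 value per breed no replicate could be left out. No paired analysis was possible because the deposited columns carry no library of either replicate number. The counts of called members, 1 higher in Ross 708 and none higher in Isfahani, were the same at a q-value of 0.01, with a log2 ratio of at least 1 required and at 1 FPKM or more in both breeds; at an unadjusted p of 0.05 they were 5 and 1. The median log2 ratio of the tested members, 0.029, ran from -0.071 with all rows brought to a common total to 0.08 on centring; without members whose row overlaps another, an alternative chosen after seeing the data, it was -0.014. Its sign is thus not settled. That rescaling shifts log2 ratios by -0.13 before the pseudocount is added, and less for low genes, and the sum is affected by the HIDATA rows, which are at 0 in Isfahani; without them the shift is 0.049. The ratio of the members' summed FPKM, -0.37, was -0.51 after the same rescaling and -0.17 without TPI1, the latter also chosen after seeing the data. Of 115 recomputed ratios of single genes, 28 moved by more than 0.1 on the log2 scale, and 6 genes changed sign in some setting (ENO1, FBP2, GBE1, PFKFB2, PFKL and PYGB), all within 0.1 of 0 as reported. ALDOC was higher in Ross 708 in every scaling and pseudocount tried, with a log2 ratio of 1.07 after the rescaling to a common total.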

Other observations

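Among the members without a row, PGM1 and PHKG1 stand in rows that carry several gene names, and whose FPKM cannot be assigned to either gene. The row named EFCAB7 and PGM1 stood at 4663 FPKM in Isfahani birds and 3514 in Ross 708 birds (log2 ratio -0.41) with q = 0.686 in the authors' deposited table. PGM1 is the phosphoglucomutase that links glycogen to glycolysis. The row named CHCHD2 and PHKG1 was at 2112 against 1839 FPKM (log2 ratio -0.20) with q = 0.894, and PHKG1 encodes the muscle-type catalytic subunit of phosphorylase kinase. Neither row was called.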
